A study of Mus musculus with 31 samples.

Results

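The clustered protocadherins are cell adhesion genes that lie side by side in 3 clusters, α, β and γ, on mouse chromosome 18. The genes described here were those whose symbol in the GENCODE annotation of GRCm38 names a member of the α, β or γ cluster and to which at least 1 read was assigned in 31 mice. There were 57 of them among 48709 genes in the count tables. The α cluster held 14 (chr18:36930184-37187661), the β cluster 21 (chr18:37294812-37524479) and the γ cluster 22 (chr18:37661793-37841873), all on the plus strand of GRCm38. One further β gene, Pcdhb1 (chr18:37264938-37267525), had 0 reads in every mouse, which allows up to 3 reads in all, or 0.0130 counts per 1000000 reads (CPM) over the 31 libraries. The symbol Pcdha11 is carried by 2 α gene models, which are told apart below by their Ensembl identifiers.

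Neurons choose among the alternative first exons of these clusters, and each first exon has its own promoter. CTCF and cohesin loop a distant enhancer to the chosen promoter, and DNA methylation keeps the others silent. The chosen isoforms give a neuron a surface identity that its own branches recognise and avoid. In the α and γ clusters each variable first exon is spliced to constant exons shared by the whole cluster, whereas each β gene is a single large exon with its own end. The C-type genes at the far end of the α and γ clusters differ from the others in that they are expressed in a regular rather than a random way. The intracellular part shared by the α proteins is known to bind the WAVE regulatory complex, of which CYFIP1 is a subunit, and that link is why a CYFIP1 mouse bears on this gene family.

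RNA from the basolateral amygdala (BLA), a region known for its part in fear learning, was sequenced by QuantSeq, in which a read comes from the 3′ end of a polyadenylated transcript. The mice were on a C57BL/6N background, and CYFIP1 OE mice carried a human CYFIP1 BAC (a large genomic transgene) introduced by pronuclear injection, so the gene comes with human flanking sequence rather than a chosen neuronal promoter. WT mice carried no transgene. The labels give 2 lines, 1 and 3: line 1 had 8 WT mice (59 to 61 days old) and 7 CYFIP1 OE mice (59 to 77 days old), and line 3 had 8 WT mice (58 to 60 days old) and 8 CYFIP1 OE mice (58 to 64 days old), with both sexes in each group. Each line descends from its own founder, so line and site of insertion cannot be told apart. Each mouse is 1 sample, with the left and right punches pooled, and each was taken as 1 replicate, so that p-values measure the spread between mice. The 4 mice aged 77 days were all CYFIP1 OE mice of line 1. Mouse names share prefixes in 9 name groups, of which 5 held both genotypes.

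Libraries held between 5286925 and 8685521 reads. All 7 neuron markers examined passed the filter on low reads. The summed level of 6 striatal projection neuron markers ran from 216 to 4682 CPM between mice. That of 4 choroid plexus markers ran wider, from 19.5 to 8397 CPM. Its medians were 114 CPM in WT and 91.4 CPM in CYFIP1 OE mice of line 1, and 1137 and 492 CPM in line 3. Choroid plexus markers were not set against the clusters. The 3 serotonergic markers summed to at most 1.65 CPM. In the mouse Cyfip1 gene, the mean was 33.01 ± 3.66 CPM (SD, n = 15) with the transgene and 33.5 ± 4.48 CPM (SD, n = 16) in WT mice, and the groups overlapped. Reads of the human transgene were not analysed here, so this value does not check the genotype labels. The first CYFIP1 OE mouse of line 3 stood apart from all other mice, with a connectivity Z-score (its correlation with the other mice, standardized) of -4.74. It was kept, although the study removed samples with a Z-score under -2. Several results that rest on it are also given without it.

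The first question was which of these genes 3′ reads can tell apart. Over the last 300 bases of each gene's longest coding transcript, 14 of 14 α genes and 22 of 22 γ genes had no 31-base word of their own, and those bases lie in exons shared with other genes of the cluster. Some α and γ genes have further annotated transcripts that end outside these exons, such as a single-exon transcript of Pcdhga1, and these were not part of the comparison. Of 21 β genes, 18 had only words of their own and 2 (Pcdhb5 and Pcdhb16) had 98.1% and 97.8% such words. The remaining β gene, Pcdhb21, had none, since its last bases lie inside an exon of its neighbour Pcdhb22. The values of Pcdhb21 and Pcdhb22 are therefore uncertain as a pair. Windows of 100 bases gave 19 fully distinct β genes, windows of 500 bases gave 15 and words of 50 bases gave 20, and all of these choices gave 0 in the α and γ clusters.

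The counts themselves showed the same division. Salmon, the tool with which the authors estimated counts, splits a read that fits several transcripts between them, which leaves fractions. Among non-zero values, 68.5% were whole numbers (within 0.001) in the β cluster, 11.7% in the γ cluster and 0% in the α cluster. Over all genes in the count tables the share was 49.9%. In 7 β genes the value was whole in every mouse, Pcdhb17 among them, but in Pcdhb14, Pcdhb21 and Pcdhb22 it was whole in 0% of mice with reads and in Pcdhb5 in 3.23%. Pcdhb14 and Pcdhb22 have only words of their own at their last 300 bases, so some of their reads were nevertheless shared with another model. Most values of single α and γ genes are thus estimated shares of a common pool of reads. A few γ genes with low reads had mostly whole values, namely Pcdhga9 (82.4%), Pcdhga1 (75.0%) and Pcdhga7 (60.0%), which were named after their values were seen.

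**Figure D1:**
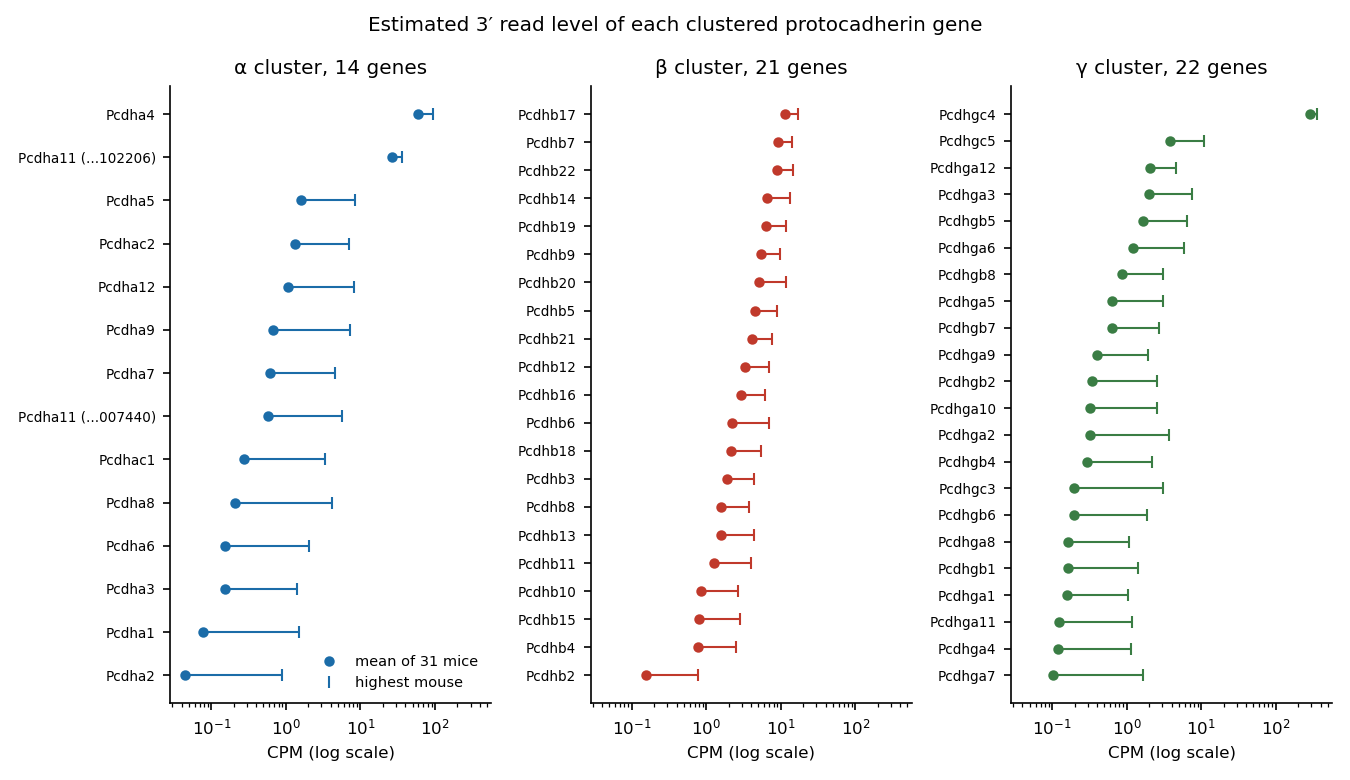
Level of each of the 57 genes in CPM on a log axis, with the mean of 31 mice as a point and the highest mouse as a tick, in 1 panel per cluster. Pcdha4 and 1 Pcdha11 model stand above the other α genes and Pcdhgc4 above the other γ genes. Levels of single α and γ genes are mostly estimated shares of common reads. The β genes form a gradual slope from Pcdhb17 down to Pcdhb2.

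In the α cluster the sum over genes was 91.8 ± 17.98 CPM (SD, n = 31), from 57.2 to 138 CPM. Pcdha4 was assigned 64.1% of all α reads and the Pcdha11 model ENSMUSG00000102206 brought the share to 92.7%, and Pcdha4 was the highest α gene in 31 of 31 mice. Pcdha4 averaged 58.7 ± 14.4 CPM (SD, n = 31) and this Pcdha11 model 26.3 ± 4.28 CPM (SD, n = 31). The other Pcdha11 model, ENSMUSG00000007440, averaged 0.569 CPM. The 12 α genes other than the leading pair shared 7.28% of the reads. Among them Pcdha5 averaged 1.59 ± 2.06 CPM (SD, n = 31) and Pcdha7 0.610 ± 1.11 CPM (SD, n = 31). Of the C-type α genes, Pcdhac2 averaged 1.33 CPM and had reads in 19 mice, and Pcdhac1 averaged 0.274 CPM and had reads in 4 mice.

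These shares ran alongside the annotated transcripts. The shortest annotated transcript that reaches the α end belongs to Pcdha4 (4129 bases), followed by Pcdha1 (4925 bases), which held 0.0849% of the reads. Of the 3 α genes with a transcript ending 273 bases earlier, ENSMUSG00000102206 has the shortest, at 4583 bases. The part of transcript length in these shares was not tested. They are estimates, and they are not evidence of which first exon was used.

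In the γ cluster the sum was 301 ± 56.0 CPM (SD, n = 31), higher than the α sum in 31 of 31 mice, with a median ratio of 3.22. Pcdhgc4, a C-type gene, was assigned 94.9% of all γ reads, or 285 ± 59.3 CPM (SD, n = 31), and was the highest γ gene in 31 of 31 mice. Its shortest annotated transcript (2272 bases) is also the shortest that reaches the γ end, ahead of one of Pcdhgc3 (3588 bases), which held 0.0570% of the reads. The part of transcript length was not tested here either. The C-type gene Pcdhgc5 averaged 3.80 ± 2.36 CPM (SD, n = 31), Pcdhga12 2.06 ± 1.07 CPM and Pcdhga3 1.99 ± 1.80 CPM. Pcdhga6 averaged 1.23 CPM, Pcdhgb8 0.855 CPM and Pcdhgc3 0.195 CPM, the last with reads in 7 mice.

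In the β cluster, where most genes have an end of their own, reads were spread over the whole array. The β sum was 80.8 ± 13.0 CPM (SD, n = 31), lower than the α sum in 22 of 31 mice. Between 18 and 21 β genes had reads in any 1 mouse, and 15 had reads in every mouse. Pcdhb17 led with 11.3 ± 3.04 CPM (SD, n = 31), followed by Pcdhb7 with 9.20 ± 2.70 CPM, Pcdhb22 with 8.88 ± 2.37 CPM and Pcdhb14 with 6.55 ± 2.39 CPM. It took 5 genes to reach the middle of the β reads, against 1 in each other cluster. In the α and γ clusters that count rests on the estimated division of shared reads, so it is not comparable with the β count. Because QuantSeq takes reads from transcript ends only, the β levels compare genes without division by length.

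The order of neighbouring β genes was not firm. Pcdhb17 exceeded Pcdhb7 in 21 of 31 mice, Pcdhb7 exceeded Pcdhb22 in 16, and Pcdhb22 exceeded Pcdhb14 in 22, so the spreads of these neighbours overlapped. Pcdhb17 had the most reads of any β gene in 19 mice, Pcdhb7 in 6 and Pcdhb22 in 4, and Pcdhb5 and Pcdhb9 led in 1 each. At the low end of the tested genes, Pcdhb15 averaged 0.809 ± 0.753 CPM (SD, n = 31) and Pcdhb4 0.766 ± 0.711 CPM (SD, n = 31). Position along the chromosome and mean level had a Spearman rho of 0.46 over the 21 genes, given as a description because these genes share libraries. The last 11 genes of the array held 65.5% of its summed level.

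Other gene models inside the clusters took few reads. The pseudogenes Gm19035 and Gm36858 in the α cluster averaged 5.01 and 1.29 reads per mouse, and Gm18529 in the β cluster averaged 2.51 reads. Models on the opposite strand averaged at most 31.1 reads (Gm26672, which overlaps 19 γ genes). Whether strand was used in counting is not given in the sources used here, so reads of such pairs cannot be told apart with certainty.

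The biological coefficient of variation, edgeR's estimate of spread beyond counting error, was 21.2% for the α sum, 18.6% for the β sum and 23.6% for the γ sum, against a median of 34.2% over 17428 tested genes. Of the 57 genes, 32 had at least 10 reads in at least 20% of mice and were tested: 6 α, 19 β and 7 γ genes. The untested ones were 8 α, 2 β and 15 γ genes, and a gene could pass through a single group in which it is high. Among tested β genes the coefficient ran from 26.7% (Pcdhb22) to 95.03% (Pcdhb4), with a median of 44.7%. The leading genes of the other clusters were lower, with 18.1% for the Pcdha11 model ENSMUSG00000102206, 24.3% for Pcdha4 and 26.1% for Pcdhgc4.

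The main question of the study was whether CYFIP1 OE mice differ from WT mice. In edgeR's quasi-likelihood test with sex and line in the model, an adjusted p under 0.05 was reached by 0 of the 32, and by 0.0% of all 17428 genes tested, and DESeq2 also called 0. At an unadjusted p under 0.05 there were again 0 of 32 by either tool, against 4.3% of all genes in edgeR. At the study's threshold, an unadjusted p under 0.005, there were 0 of 32 against 0.293%. Of the 32 genes, 15 were higher and 17 lower in CYFIP1 OE mice, against 48.7% higher among all genes. Their median log2 fold change was -0.02 and that of all tested genes -0.01. In bulk tissue, fewer cells of a type and less RNA per cell cannot be told apart.

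For the sums, approximate intervals were computed for the genotype difference averaged over both lines, with no account of name group. The α sum had a log2 fold change of -0.001 (95% interval -0.21 to 0.21, edgeR adjusted p = 1.00), and the γ sum one of -0.06 (95% interval -0.29 to 0.17, edgeR adjusted p = 1.00). Without the first CYFIP1 OE mouse of line 3, the γ value was 0.01 (95% interval -0.17 to 0.18). Within 1 line the α interval was wider, at -0.18 to 0.46 in line 1 alone and -0.38 to 0.11 in line 3 alone. The β sum adds genes that were measured apart and is described without a p, with a log2 fold change of 0.02 (95% interval -0.16 to 0.20). For most single genes the SE was larger than for the sums. Pcdha12 had the smallest p of any of the 32, with a log2 fold change of -1.73 (SE 0.87, edgeR adjusted p = 0.999), on medians of 0.732 and 0.976 CPM in WT mice of lines 1 and 3 and of 0 in both groups of CYFIP1 OE mice. Every group contained mice with 0 reads of Pcdha12.

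**Figure D2:**
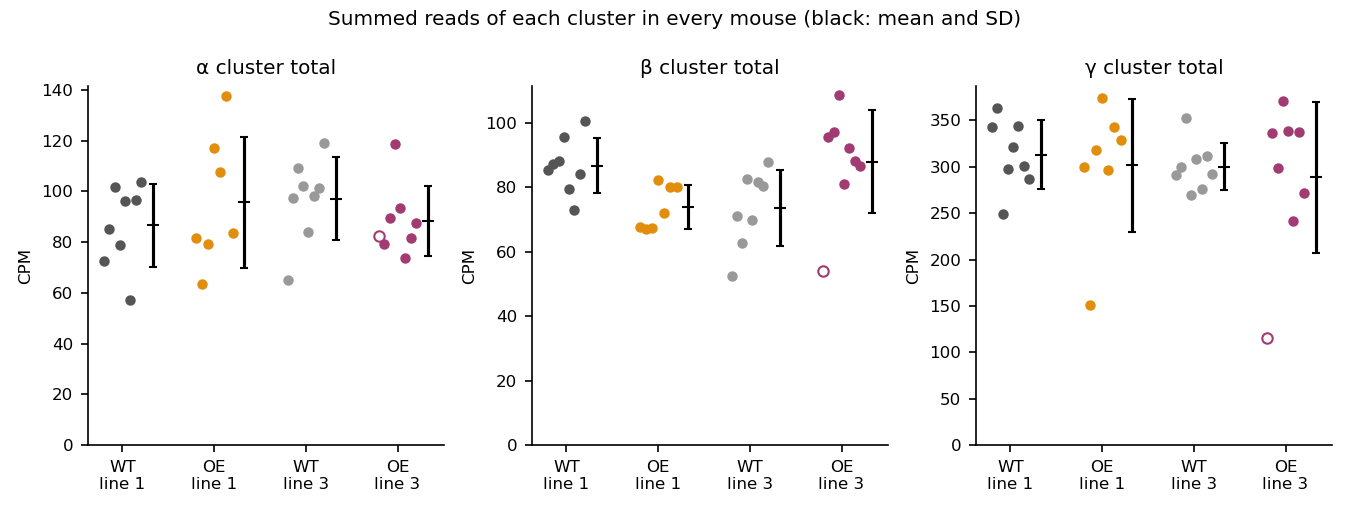
Summed level of each cluster in CPM in every mouse (points), with the mean and SD of each group beside them in black; the open circle is the mouse with a connectivity Z-score of -4.74. The α and γ groups overlap throughout, while in the β panel CYFIP1 OE mice sit lower than most WT mice in line 1 and higher in line 3.

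Mice of the lines were compared next, with genotype and sex in the model. No gene of the 32 reached an adjusted p under 0.05 for line 3 against line 1 in edgeR or DESeq2, as did 0.0% of all genes, and 0 of 32 had an unadjusted p under 0.05, against 3.31% of all genes. At an unadjusted p under 0.005 it was 0 of 32 against 0.189%. Of the 32, 18 were higher in line 3, against 51.8% of all genes. The median log2 fold change over the 32 genes was 0.01, as it was over all tested genes. The 5 genes with the smallest p were Pcdhb13, Pcdhgb5, Pcdhac2, Pcdhb6 and Pcdhb12. Pcdhb13 ran from 0.147 to 4.36 CPM (median 2.11) in line 1 and from 0 to 2.64 CPM (median 1.19) in line 3, with a log2 fold change of -0.69 (SE 0.38, edgeR adjusted p = 1.00). Pcdhgb5 had a log2 fold change of 0.63 (SE 0.35), Pcdhac2 of 1.05 (SE 0.78), Pcdhb6 of -0.38 (SE 0.32) and Pcdhb12 of 0.34 (SE 0.30), each with an edgeR adjusted p of 1.00. Lines overlapped in all 5. Line and name group cannot be told apart, since no name group holds both lines.

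By sex, 0 of the 32 reached an adjusted p under 0.05 with edgeR or DESeq2, against 0.0631% of all genes with edgeR, and 4 of 32 had an unadjusted p under 0.05 by either tool, against 4.62%. With edgeR 1 of 32 had an unadjusted p under 0.005, against 0.436%, and 21 of 32 were higher in females, against 46.6%. All tested β genes other than Pcdhb4, Pcdhb19 and Pcdhb22 were higher in females.

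The genotype difference was then compared between the lines through an interaction term. Its test asks whether the log2 fold change of CYFIP1 OE over WT differs between the lines, in either direction. The term is above 0 where the log2 fold change is higher in line 3 than in line 1. No gene of the 32 had an adjusted p under 0.05 in edgeR or DESeq2 (0.0% of all genes in edgeR). At an unadjusted p under 0.05 there were 3 of 32 in edgeR and 4 of 32 in DESeq2, against 8.1% of all genes in edgeR, so the share was near the background. At an unadjusted p under 0.005 it was 0 of 32 against 0.843%. The 3 were the β genes Pcdhb17, Pcdhb14 and Pcdhb18. The term was above 0 in 16 of 19 β genes with a median of 0.41, and in 4 of 6 α genes and 5 of 7 γ genes. Of all genes, 48.6% were above 0, with a median of -0.01. Most β genes lay on the same side of 0 by sex as well, so such a lean was not particular to the interaction.

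Pcdhb17 ran from 11.1 to 16.9 CPM (median 13.9) in WT mice of line 1 and from 6.27 to 12.1 CPM (median 9.86) in CYFIP1 OE mice of line 1. In line 3 it ran from 6.08 to 13.9 CPM (median 10.2) in WT mice and from 5.91 to 17.2 CPM (median 11.2) in CYFIP1 OE mice. In line 1 the groups thus touched only at their edges, and in line 3 the CYFIP1 OE range covered the WT range. The interaction was 0.79 on the log2 scale (SE 0.27, edgeR adjusted p = 0.53). Within line 1 alone the log2 fold change was -0.58 (SE 0.18, edgeR adjusted p = 0.73).

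Pcdhb14 ran from 3.92 to 11.2 CPM (median 5.66) in WT mice and from 3.38 to 7.36 CPM (median 5.62) in CYFIP1 OE mice of line 1. In line 3 it ran from 3.05 to 7.58 CPM (median 5.84) in WT mice and from 3.58 to 13.4 CPM (median 8.81) in CYFIP1 OE mice. Here the medians were alike in line 1 and apart in line 3, with overlap in both, and the interaction was 0.77 (SE 0.35, edgeR adjusted p = 0.58). Pcdhb18 ran from 1.29 to 3.08 CPM (median 2.39) and from 0.522 to 3.79 CPM (median 1.46) in WT and CYFIP1 OE mice of line 1. In line 3 its ranges were 0.647 to 2.58 CPM (median 1.63) in WT mice and 1.98 to 5.48 CPM (median 2.23) in CYFIP1 OE mice, and its interaction was 1.11 (SE 0.54, edgeR adjusted p = 0.61).

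Fitted in each line on its own, β genes leaned to opposite sides. In line 1 alone 13 of 18 tested β genes were lower in CYFIP1 OE mice with a median of -0.22, while 49.2% of all genes were higher. In line 3 alone 15 of 20 were higher with a median of 0.16, against 47.0% of all genes. At an unadjusted p under 0.05 there was 1 β gene in line 1, against 5.53% of all genes, and 3 in line 3, against 6.42%. Left without the first CYFIP1 OE mouse, line 3 had 2 such β genes, against 8.51%, and 16 of 20 were higher with a median of 0.24, against 46.8% of all genes. In line 1 without the mice aged 77 days, 10 of 17 β genes were lower with a median of -0.07, while 8451 of all 17372 genes were higher. In line 3 without name group X424, 14 of 19 were higher with a median of 0.26, against 8400 of 17145. With name group as a block 14 of 20 were higher with a median of 0.09, against 7990 of 17324. These counts are descriptions, because the β genes share libraries.

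**Figure D3:**
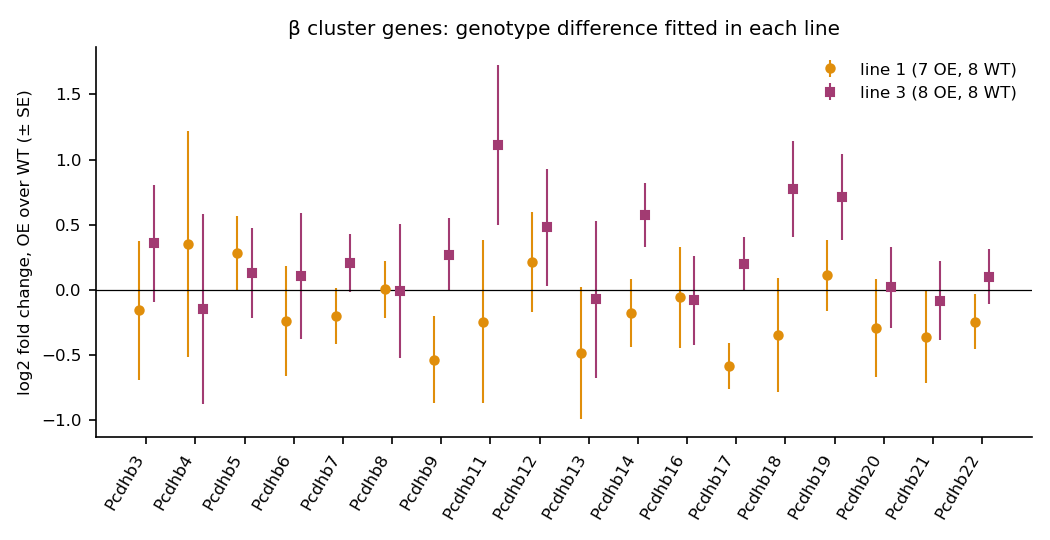
Log2 fold change of CYFIP1 OE over WT mice, with its SE, fitted separately in line 1 and line 3 for the 18 β genes tested in both. In line 1, 5 of 18 lie above 0, and in line 3, 13 of 18; none of these has an adjusted p under 0.05 in either line.

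The β sum showed the same pattern. In line 1 it ran from 73.1 to 101 CPM (median 86.3) in WT mice and from 67.2 to 82.3 CPM (median 72.2) in CYFIP1 OE mice. In line 3 it ran from 52.4 to 88.0 CPM (median 75.9) in WT mice and from 53.9 to 109 CPM (median 90.3) in CYFIP1 OE mice. Groups overlapped within both lines. The log2 fold change was -0.23 (95% interval -0.44 to -0.03) in line 1 and 0.26 (95% interval 0.01 to 0.52) in line 3, and the interaction was 0.51 (SE 0.17). These intervals are approximate and take no account of name group. Neither difference, nor the interaction, had an edgeR adjusted p under 0.05. Without the first CYFIP1 OE mouse of line 3 the interaction was 0.58 and the difference within line 3 was 0.33. The 3 WT mice of name group X424, all of line 3, had β sums from 52.4 to 71.3 CPM, and without that name group the interaction was 0.44. Without the mice aged 77 days, the difference within line 1 was -0.20 (95% interval -0.48 to 0.07).

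Name group and genotype were nearly confounded in line 1, where 7 of 8 WT mice belonged to name group X426, which holds no CYFIP1 OE mouse, so they cannot be told apart there. The only line 1 name group with both genotypes, X429, had a β sum of 101 CPM in its WT mouse and 67.8 CPM in its CYFIP1 OE mouse. In line 3 all 4 name groups held both genotypes. With name group as a block, added after the data were seen, the β difference in line 3 was 0.14 (95% interval -0.11 to 0.39), smaller than the 0.26 without the block, and the interval included 0. In SMC12 the WT mice had 69.8 and 82.5 CPM and the CYFIP1 OE mouse 95.8 CPM. In X605B the WT mice had 80.5 and 81.6 CPM and the CYFIP1 OE mice from 81.0 to 109 CPM. In X605A the WT mouse had 88.0 CPM and the CYFIP1 OE mice 86.7 and 88.2 CPM. In X424 both genotypes were low, with WT mice from 52.4 to 71.3 CPM. Its only CYFIP1 OE mouse, at 53.9 CPM, was the one with a connectivity Z-score of -4.74. Over the 18 mice of the 5 name groups with both genotypes, blocked the same way, the genotype difference of the β sum was 0.08 (95% interval -0.16 to 0.33). By comparison, the interaction of the α sum was -0.28 (SE 0.21, edgeR adjusted p = 0.79), and that of the γ sum was 0.00 (SE 0.24, edgeR adjusted p = 1.00). Without the first CYFIP1 OE mouse of line 3, that of the γ sum was 0.13 (SE 0.18).

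The medians of striatal markers differed between these groups, while their ranges overlapped within both lines. The summed level of the 6 striatal projection neuron markers, of which 5 passed the filter and none was at 0 in all mice, had a median of 3099 CPM (2450 to 3396) in WT mice of line 1 and 1829 CPM (594 to 3864) in CYFIP1 OE mice of line 1. In line 3 the median was 1929 CPM (216 to 4211) for WT and 2940 CPM (246 to 4682) for CYFIP1 OE. The order of these medians was that of the β sums in both lines. With the striatal marker score as a covariate, added after the data were seen, the interaction of the β sum was 0.28 (95% interval -0.04 to 0.59). In that fit 0 of 19 β genes had an unadjusted p under 0.05, against 834 of all 17428 genes. Without the score, 1412 of the 17428 had such a p. The term was above 0 in 14 of 19 β genes with a median of 0.16, against 8356 of 17428 with a median of -0.02. The part of striatal tissue in the β differences was not tested.

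The sums, on the log2 scale, were then set against marker scores, each the mean over a list of standardized log2 CPM, in 15 pairs of a sum and a score. Across the 31 mice the β sum and the striatal score had a Pearson r of 0.70 and a Spearman rho of 0.73, given as a description. The r was 0.69 without the 2 mice farthest from the median score, 0.65 in line 1, 0.71 in line 3, 0.57 among WT mice and 0.81 among CYFIP1 OE mice. Of the 19 tested β genes, 15 had a positive r with the striatal score, with a median of 0.28, against 48.0% of all tested genes and a median of -0.02. The values were highest for Pcdhb17 (0.57) and included Pcdhb14 (0.51), Pcdhb18 (0.28), Pcdhb7 (0.34) and Pcdhb22 (0.03), and the lowest was Pcdhb4 (-0.19). With the β sum the neuron score had an r of 0.14, the oligodendrocyte score 0.02, the microglia score 0.01 and the astrocyte score -0.37, the last with a rho of -0.28.

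For the α sum r was farthest from 0 with the neuron, oligodendrocyte and astrocyte scores. With the neuron score it had a Pearson r of 0.68 (permutation p = 5e-05, adjusted 0.000187) and a Spearman rho of 0.64 (permutation p = 0.00019, adjusted 0.000712). With the oligodendrocyte score r was -0.68 (permutation p = 4e-05, adjusted 0.000187) and rho -0.66 (permutation p = 8e-05, adjusted 0.0004). With the astrocyte score r was -0.69 (permutation p = 4e-05, adjusted 0.000187) and rho -0.73 (permutation p = 2e-05, adjusted 0.0003). Left without the 2 mice farthest from the median score, the r values were 0.55, -0.63 and -0.62. Within line 1 they were 0.68, -0.69 and -0.71, and within line 3 they were 0.66, -0.69 and -0.75. With the striatal score the α sum had an r of 0.01 (permutation p = 0.935, adjusted 0.953) and a rho of -0.11 (permutation p = 0.560, adjusted 0.697).

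**Figure D4:**
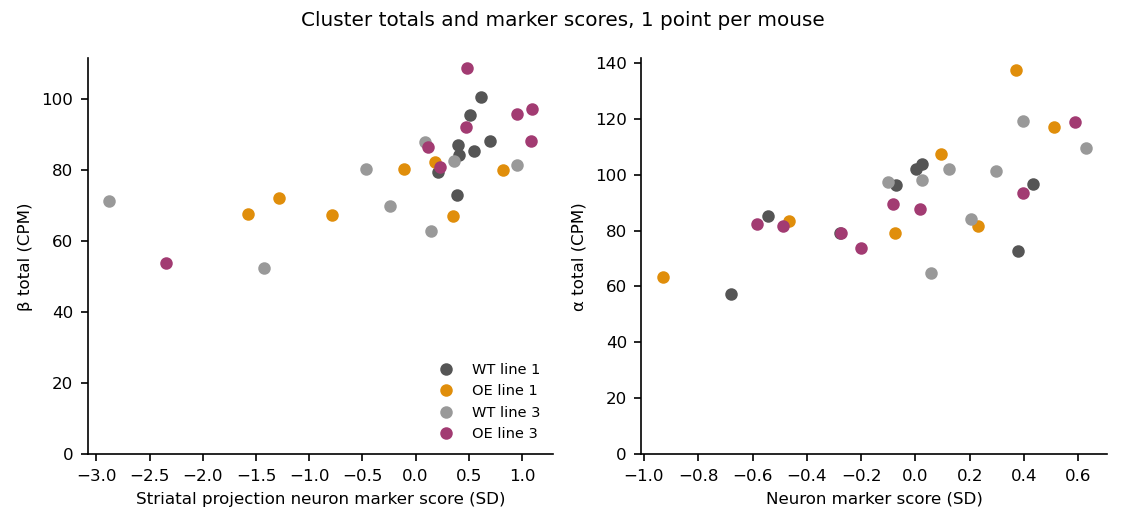
Left, β sum in CPM against the striatal projection neuron marker score in 31 mice; right, α sum in CPM against the neuron marker score. Colours are the 4 groups, scores are means of standardized log2 CPM, and r, computed on log2 sums, is 0.70 on the left and 0.68 on the right.

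The γ sum was set apart by 2 mice. In the first CYFIP1 OE mouse of line 3 it was 115 CPM and in the second CYFIP1 OE mouse of line 1 it was 151 CPM, whereas the other 29 mice ran from 241 to 374 CPM. Pcdhgc4 was at 83.0 and 130 CPM in this pair and between 226 and 363 CPM in the others. The other 21 γ genes summed to 31.9 and 20.3 CPM, inside the range of 5.44 to 35.7 CPM (median 14.4) of the other mice. With levels that low, a drop of this size could lie only in the reads assigned to Pcdhgc4. Because the γ genes share their 3′ ends, the split does not place the drop in 1 gene. Its share of γ reads was 72.3% and 86.6%, and between 86.9% and 98.4% in the others. These mice had the highest microglia scores of all 31, 1.52 and 1.73, against at most 1.23 in the others. Their neuron scores were -0.58 and -0.93, and the lowest of the others was -0.68. In the mouse of line 3, however, the neuron markers summed to 3302 CPM, above the median of 2671 CPM over all mice. Its low score and its high sum thus differed in direction. The part of these markers in the low values was not tested.

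Among the γ correlations, that with the microglia score rested on these mice. With that score r was -0.55 (permutation p = 0.00167, adjusted 0.00501) but rho was -0.25 (permutation p = 0.171, adjusted 0.366), and without this pair, which lies farthest from the median score, r was -0.10. With the neuron score r was 0.48 (permutation p = 0.0057, adjusted 0.0142) and rho 0.31 (permutation p = 0.0921, adjusted 0.276), and without the 2 mice farthest from the median score r was 0.41. Within WT mice r was -0.14 and within CYFIP1 OE mice 0.68. Among the 3 pairs of sums, α and γ had an r of 0.28 (permutation p = 0.130, adjusted 0.130) and a rho of 0.15 (permutation p = 0.427, adjusted 0.640). For β with α r was 0.32 and rho 0.20, and for β with γ r was 0.41 and rho 0.05.

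**Figure D5:**
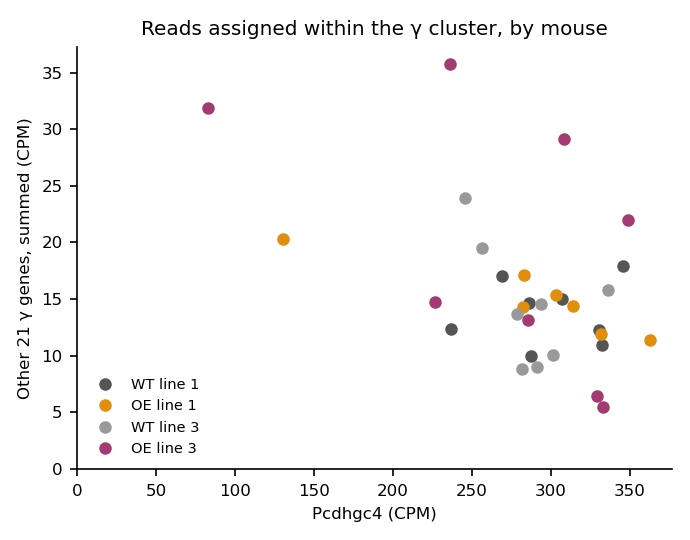
CPM assigned to Pcdhgc4 (x axis) and to the other 21 γ genes together (y axis) in each of the 31 mice, coloured by group. A pair of CYFIP1 OE mice, 1 per line, lies at 83.0 and 130 CPM of Pcdhgc4, left of all others.

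Genes known to act with the clustered protocadherins were examined as 4 lists. In none did any gene have an adjusted p under 0.05 by genotype, line or interaction in edgeR. Of 19 tested genes for CTCF, cohesin and methylation, which act on promoter choice, 11 were higher and 8 lower by genotype, the median log2 fold change was 0.03, and 0 had an unadjusted p under 0.05. Of all 17428 genes, 48.7% were higher and 4.3% had such a p, with a median of -0.01. Ctcf, the factor bound at these promoters, stood at 40.3 ± 10.3 CPM (SD, n = 16) in WT mice and, with the transgene, at 46.8 ± 16.6 CPM (SD, n = 15). Dnmt1, a DNA methyltransferase, had 22.9 ± 3.87 CPM and 20.7 ± 3.95 CPM in the same order.

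Of 10 tested genes of the WAVE regulatory complex, the actin regulator that holds CYFIP1, 1 was higher and 9 lower with a median of -0.03. None had an unadjusted p under 0.05, against 4.3% of all genes. Over all genes 48.7% were higher, with a median of -0.01. Its blood-lineage subunit Nckap1l had a log2 fold change of 0.31 (SE 0.23) and Wasf3 one of -0.12 (SE 0.13). Of 10 kinases and other partners of the protocadherins, 4 were higher and 6 lower with a median of -0.03 and again 0 with an unadjusted p under 0.05, against the same shares of all genes. Axin1, a scaffold protein of Wnt signalling, had a log2 fold change of -0.25 (SE 0.13).

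Of 11 tested non-clustered protocadherins, which lie outside the clusters and have no alternative first exons of this kind, 7 were higher and 4 lower with a median of 0.00, against 48.7% higher among all genes. An unadjusted p under 0.05 was reached by 2, against 4.3% of all genes. Pcdh18 ran from 0.784 to 6.63 CPM (median 2.67) in WT mice and from 0.808 to 13.2 CPM (median 3.91) in CYFIP1 OE mice, a log2 fold change of 0.77 (SE 0.31, edgeR adjusted p = 0.999). Pcdh15, which in hair cells forms the tip link, ran from 7.90 to 18.04 CPM (median 13.7) and from 5.92 to 16.6 CPM (median 10.9), with a log2 fold change of -0.28 (SE 0.13, edgeR adjusted p = 0.999). Both pairs of ranges overlapped. By interaction, 3 of these 11 had an unadjusted p under 0.05, against 8.1% of all genes, and the median was -0.39. In the same order as above, the other lists had 1 of 19, 2 of 10 and 0 of 10 such genes, with medians of 0.13, 0.14 and -0.16.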

How the data were processed

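The authors mapped QuantSeq 3′ reads with STAR to GRCm38 and deposited expected counts (estimated counts per gene from Salmon) for each mouse, with no normalization or filter. The alignment statistics behind the study's 5 sequencing principal components were not used here. Estimated counts were rounded, the filter asked for 10 or more reads in 20% of mice or more, and edgeR 4.0.16 in R 4.3.3 fitted a quasi-likelihood model with TMM factors on sex, line and genotype, or on their interaction, with Benjamini-Hochberg adjustment over all genes. For the sums, the genes of a cluster were replaced by their total in the same table. CPM values are TMM-normalized. Intervals are the estimate ± 1.96 SE and are approximate. DESeq2 1.42.0 and sva 3.50.0 served in alternatives. Names, ends and transcripts came from GENCODE vM21 of GRCm38, which may differ from the authors' release, and transcript words were compared over all annotated transcripts. Correlations used 100000 two-sided permutations (numpy 2.4.6, scipy 1.17.1), with adjustment within families of 15 and 3. Total reads of 5286925 to 8685521 per mouse leave many of these genes with under 10 reads, so that counting error is part of their spread.

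The fits were tested on simulated counts. The members and gene lists were chosen with earlier results of these data known. Genes named one by one were, in each cluster, the 4 highest and the 2 lowest tested by mean CPM, the C-type genes, those with an unadjusted p under 0.05 by genotype or interaction, the 5 with the smallest p by line, models inside the clusters with at least 1 read on average, and in each list the 2 with the smallest p by genotype and Cyfip1. A few more were named after their values were seen. One gene that this rule names is not reported here.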

Additional observations from a re-analysis of the deposited data

Results flagged for a closer look

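Single mice were flagged where the gap between the highest or lowest value and its neighbour was a large part of the range of the group (Dixon's test at the 95% level). Over 112 combinations of a named gene or sum and a group there were 24 flags, and chance alone flags about 1 in 20 groups of roughly normal values. That rate does not hold for genes with most mice at or near 0, such as Pcdhgc3, where 1 mouse with reads is enough, so the number of flags was not compared with chance. The α sum was 119 CPM in 1 of the CYFIP1 OE mice of line 3, above the range of 73.8 to 93.3 CPM of the others. The γ sum was 151 CPM in 1 of the CYFIP1 OE mice of line 1, below the range of 297 to 374 CPM of the others. Pcdhgc4 was 130 CPM in 1 of the CYFIP1 OE mice of line 1, below the range of 283 to 363 CPM of the others. Pcdhgc4 was 83.0 CPM in 1 of the CYFIP1 OE mice of line 3, below the range of 226 to 349 CPM of the others.

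Single high values of other genes were as follows in the groups named. Pcdha5 stood out at 8.34 CPM in WT line 1 (others at most 3.46). Pcdha12 stood out at 8.21 CPM in WT line 1 (others at most 3.01). Pcdha7 stood out at 4.53 CPM in WT line 3 (others at most 1.93). Pcdhb22 stood out at 12.01 CPM in CYFIP1 OE line 1 (others at most 8.04). Pcdhb15 stood out at 2.80 CPM in WT line 3 (others at most 1.31). Pcdhb4 stood out at 2.43 CPM in WT line 1 (others at most 0.987). Pcdhgc5 stood out at 6.93 CPM in WT line 3 (others at most 3.62). Pcdhga6 stood out at 3.66 CPM in WT line 3 (others at most 1.63) and 5.91 CPM in CYFIP1 OE line 3 (others at most 2.66). Pcdhgb8 stood out at 3.05 CPM in CYFIP1 OE line 1 (others at most 0.632). Pcdhac1 stood out at 3.38 CPM in CYFIP1 OE line 1 (others at most 1.35) and 2.85 CPM in WT line 3 (others at most 0.910). Pcdhgc3 stood out at 0.398 CPM in CYFIP1 OE line 1 (others at most 0), 0.202 CPM in WT line 3 (others at most 0) and 3.05 CPM in CYFIP1 OE line 3 (others at most 1.10). Pcdhb18 stood out at 5.48 CPM in CYFIP1 OE line 3 (others at most 3.23). Pcdhgb5 stood out at 3.32 CPM in WT line 1 (others at most 1.61), 5.48 CPM in WT line 3 (others at most 2.88) and 6.53 CPM in CYFIP1 OE line 3 (others at most 1.89). Pcdhb6 stood out at 7.04 CPM in WT line 1 (others at most 3.24).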

How the results depend on the processing

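No call at an adjusted p under 0.05 was made for any of these genes or sums, under the main settings or any alternative, so what changed were counts at an unadjusted p under 0.05. The genes tested vary with the setting, and without a filter they include genes with very few reads. By genotype the main count was 0 of 32, against 4.3% of all genes. It was 1 with 5 surrogate variables, with age or the striatal score as a covariate, with library totals only, in line 1 alone, in line 3 alone with name group as a block, in name groups with both genotypes and without mice aged 77 days. It was 2 without the mouse of low connectivity, in line 1 alone without mice aged 77 days and in line 3 alone without name group X424. It was 4 without a filter, in line 3 alone, and there without the mouse of low connectivity. Where the count was 1, all genes gave from 804 of 17658 (name groups with both genotypes) to 1373 of 17428 (library totals only). Where it was 2, they gave 660 of 17719, 604 of 17372 and 1153 of 17145 in that order. Where it was 4, they gave 2534 of 32936, 1113 of 17324 and 1525 of 17928. By line the main count was 0 of 32, against 3.31% of all genes. It was 2 in WT mice alone, in CYFIP1 OE mice alone and there without the mouse of low connectivity, 3 without name group X424 and 4 without a filter. In that order, all genes gave 1073 of 17666, 939 of 17562, 1360 of 17333, 949 of 17353 and 2431 of 32936. By interaction the main count was 3 of 32, against 8.1% of all genes. It was 0 with 5 surrogate variables or the striatal score and 10 without a filter. In that order, all genes gave 564 of 17428, 834 of 17428 and 3123 of 32936. By sex the main count was 4 of 32, against 4.62% of all genes. It was 2 with 5 surrogate variables and 1 with at least 10 reads in every mouse. All genes gave 1052 of 17428 and 532 of 10877 there. The striatal score, the block and the settings that leave mice out of 1 line or genotype alone were chosen after seeing the data. The cause was not tested. The interaction of the β sum stayed above 0 in all its alternatives, from 0.28 with the striatal score to 0.58. Library totals only moved the median of all genes to -0.13 by genotype and -0.18 by interaction, and 5 of the β genes average under 10 reads. No paired analysis was possible because replicate numbers were given in accession order and pair no mice, but name group served as a block where it held both genotypes.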
